A study of Homo sapiens with 5 samples.

Results

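The neutrophil-attracting CXC chemokines CXCL1, CXCL2, CXCL3, CXCL5, CXCL6 and CXCL8 are described here across a parental human renal cell carcinoma line and its lung-metastatic derivatives. Their probe sets were all those that the platform's gene table assigned to the 6 symbols, 11 of the 54675 on the array, whatever their signal. The 6 genes and the related lists below were chosen with earlier results of these data known. RNA of LM2, labelled lung-metastatic generation 2, was read on 2 arrays, RNA of LM1, labelled lung-metastatic generation 1, on 1 array, and RNA of SN12C, the parental line labelled non-metastatic, on 2 arrays. No treatment is given in the labels for any line, and each derivative is represented by a single line. Values are log2 signals as the authors deposited them, so that 1 unit is a doubling of signal, and the number of arrays limits the precision. The series description gives the purpose as finding expression that goes with rising metastatic activity.

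These 6 chemokines are small secreted proteins that carry the glutamate-leucine-arginine motif ahead of their first cysteines and bind the receptor CXCR2, with CXCL6 and CXCL8 also binding CXCR1. Both receptors sit on neutrophils, which follow the chemokine gradient into tissue. The genes lie in a cluster on chromosome 4 and are textbook targets of NF-kappaB, the transcription factor that interleukin 1 and tumour necrosis factor activate. Renal carcinoma cells are a known source of CXCL8, also called interleukin 8.

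The promoters are shown first because they hold the feature shared by the 6 genes that their choice did not use. Each line gives the 120 bases before the gene's start in RefSeq, 5′ to 3′ on the gene's own strand, in build GRCh38.p14, with capitals marking GGAATTTCC, a form of the NF-kappaB motif that was chosen after these promoters had been read. The stretches are chr4:73869273-73869392 (plus strand) for CXCL1, chr4:74099196-74099315 (minus) for CXCL2, chr4:74038690-74038809 (minus) for CXCL3, chr4:73998678-73998797 (minus) for CXCL5, chr4:73836558-73836677 (plus) for CXCL6 and chr4:73740449-73740568 (plus) for CXCL8.
CXCL1: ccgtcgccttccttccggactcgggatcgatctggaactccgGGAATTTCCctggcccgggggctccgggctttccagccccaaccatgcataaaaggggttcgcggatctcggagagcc
CXCL2: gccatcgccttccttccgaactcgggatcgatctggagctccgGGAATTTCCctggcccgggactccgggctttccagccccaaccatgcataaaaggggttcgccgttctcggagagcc
CXCL3: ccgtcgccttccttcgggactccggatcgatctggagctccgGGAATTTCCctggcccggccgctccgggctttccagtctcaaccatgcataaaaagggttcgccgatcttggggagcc
CXCL5: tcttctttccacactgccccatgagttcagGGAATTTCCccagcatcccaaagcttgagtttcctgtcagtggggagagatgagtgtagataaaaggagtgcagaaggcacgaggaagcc
CXCL6: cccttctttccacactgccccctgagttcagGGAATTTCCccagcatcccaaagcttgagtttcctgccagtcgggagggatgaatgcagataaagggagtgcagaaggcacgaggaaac
CXCL8: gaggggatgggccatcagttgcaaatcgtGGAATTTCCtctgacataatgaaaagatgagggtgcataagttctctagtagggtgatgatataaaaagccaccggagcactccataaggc
All 6 promoters held the motif on the gene's strand, between 69 and 91 bases before the start, with 250 bases searched on both strands. Of 27305 promoters of the same length, 0.428% held it. GGGAATTTCC, the same motif with the base that most often preceded it in the 6 promoters, was found in 5 of the 6 and in 0.157% of all promoters, the exception being CXCL8. CXCL8 alone of the 6 held the AP-1 motif TGACTCA, found in 4.16% of all promoters, and the TATA motif TATAAA, found in 11.1%. Aligned over 250 bases, the promoters of CXCL5 and CXCL6 were 85.3% identical and those of CXCL1 and CXCL3 81.4%, while CXCL8 shared between 40.5% and 45.0% with the other 5. Since the motif was read from the 6 genes, the shares describe how common it is and are no test. No binding was measured.

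Before the values, 3 features of the arrays bear on them. On the LM1 array the 3′ probe set of beta-actin read 3.43 log2 units above the 5′ one, against 0.07 to 0.47 on the other 4. For GAPDH the same gap was 2.09 on the LM1 array, against -0.07 to 0.14 on the others. The part of this imbalance in the LM1 values was not tested. SN12C replicate 1 stood apart from replicate 2: between the LM2 replicates 0.033% of the 54613 non-control probe sets differed by at least 1 log2 unit, against 4.21% between the SN12C replicates, and the 18S ribosomal RNA signal (middle probe set) was 7.56 and 7.43 in LM2 and 8.49 in LM1, against 8.68 and 7.54 in SN12C. Equal deposited values in both arrays of a line were found for 10094 probe sets in LM2 and 5163 in SN12C, among them none of the 11 chemokine probe sets. The labels call the replicates biological without saying whether they were separate cultures, so p-values measure only the spread between these arrays. In bulk RNA, fewer expressing cells and less RNA per cell cannot be told apart.

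The chemokines were lower in both metastatic lines than in the parent, though none passed the test across all probe sets. Differences come from limma, fitted with 1 mean per line to all 5 arrays and to every non-control probe set, with Benjamini-Hochberg adjustment and a threshold of 0.05. For LM2 against SN12C 0 of the 11 chemokine probe sets passed, where 0% of all 54613 did (lowest limma adjusted p of a chemokine = 0.407). At an unadjusted p under 0.05, 7 of the 11 were lower in LM2, against 3.05% of all probe sets, and 7 of the 11 were at least 1 log2 unit lower, against 0.731%. All 3 metastatic arrays lay below both SN12C arrays for 10 of the 11, against 5.95% of all probe sets. Since the chemokines were chosen with earlier results of these data known, these shares describe them and are no test. An exact permutation test of 2 arrays against 2 cannot go below p = 0.333.

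CXCL8, the classical neutrophil chemoattractant, had the most negative difference of the 6. Its probe set 202859_x_at read 5.43 and 6.21 in LM2 and 6.12 in LM1, against 13.30 and 9.25 in SN12C. The SN12C arrays were far apart from each other and both above every metastatic array. The difference was -5.46 ± 1.69 (SE) in LM2 (limma adjusted p = 0.698) and -5.15 ± 2.07 in LM1 (adjusted p = 0.344). Its lower LM2 array was under 6.03, the 40th percentile of all values and here taken as near background, so the size is not exact. The second probe set, 211506_s_at, read 6.59 and 6.27 in LM2 and 6.26 in LM1, against 11.19 and 8.44 in SN12C. Both probe sets put the metastatic lines below the parent and close to each other, with LM2 minus LM1 at -0.30 and 0.17. Names ending in _x_at or _s_at mark designs that can bind several transcripts, so the split of signal between closely related chemokines is uncertain for these.

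CXCL1, CXCL2 and CXCL3, the closely related GRO chemokines, followed with the same order of arrays in SN12C. CXCL2 (209774_x_at) read 6.44 and 6.86 in LM2 and 6.86 in LM1, against 12.54 and 10.19 in SN12C, a difference of -4.71 ± 0.98 in LM2 (limma adjusted p = 0.546) and -4.51 ± 1.202 in LM1 (adjusted p = 0.221). CXCL1 (204470_at) read 5.56 and 5.62 in LM2 and 6.85 in LM1, against 10.19 and 7.86 in SN12C. Its LM1 value lay between those of LM2 and the parent, and LM2 minus LM1 was -1.26 ± 1.17, which did not pass (limma adjusted p = 0.765). CXCL3 (207850_at) read 5.76 and 5.63 in LM2 and 5.55 in LM1, against 10.59 and 7.38 in SN12C, with a difference of -3.29 ± 1.31 in LM2 (limma adjusted p = 0.734). For all 3 genes SN12C replicate 1 was the highest array, and every metastatic array was below SN12C replicate 2. Both LM2 arrays lay under 6.03 for CXCL1 and CXCL3, so the sizes of their differences are not exact either. CXCL2 had 2 further probe sets, 1569203_at and 230101_at, which stayed below 6.03 on all 5 arrays. They differed by -0.36 and -0.09 in LM2, and 230101_at was the only chemokine probe set whose LM2 and SN12C arrays overlapped.

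CXCL5, an epithelial neutrophil attractant, had SN12C arrays close to each other in its brightest probe set but not in the next. The brightest, 214974_x_at, read 7.24 and 7.51 in LM2 and 7.78 in LM1, against 11.21 and 11.48 in SN12C. The means were 7.38 ± 0.19 in LM2 and 11.35 ± 0.19 in SN12C (SD, n = 2 each), so here the gap between the lines was wide next to that between replicates. The difference was -3.97 ± 0.16 in LM2, 15.7-fold lower, with the 12th smallest of 54613 p-values (limma adjusted p = 0.407), and -3.56 ± 0.20 in LM1 (adjusted p = 0.0854). The dimmer 215101_s_at read 5.77 and 6.14 in LM2 and 4.28 in LM1, against 7.72 and 9.80 in SN12C. Its SN12C arrays were 2.09 apart. That probe set put LM1 lowest, with LM2 minus LM1 at 1.68 ± 1.06 (limma adjusted p = 0.58), while 214974_x_at put LM1 slightly above LM2. The third, 207852_at, lay below 6.03 on all arrays and differed by -0.40 in LM2. CXCL5 also differed from the other members in the parental pair: replicate 2 was higher than replicate 1 in all 3 of its probe sets, by 0.27, 2.09 and 0.58, whereas replicate 1 was higher in all 8 probe sets of the other 5 genes.

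CXCL6, granulocyte chemotactic protein 2, the gene whose promoter is most like that of CXCL5, was near background throughout. Its 1 probe set, 206336_at, read 4.042 and 4.001 in LM2 and 4.08 in LM1, against 4.95 and 4.50 in SN12C. The arrays did not overlap, and the difference of -0.71 ± 0.19 in LM2 (limma adjusted p = 0.626) is of uncertain size at this signal. With CXCL6, 4 of the 11 probe sets stayed below 6.03 on every array; the other 7, which read 5 of the 6 genes, reached it on at least 2, as did 61.1% of all probe sets. CXCL3 reached it only on the SN12C arrays.

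**Figure D1:**
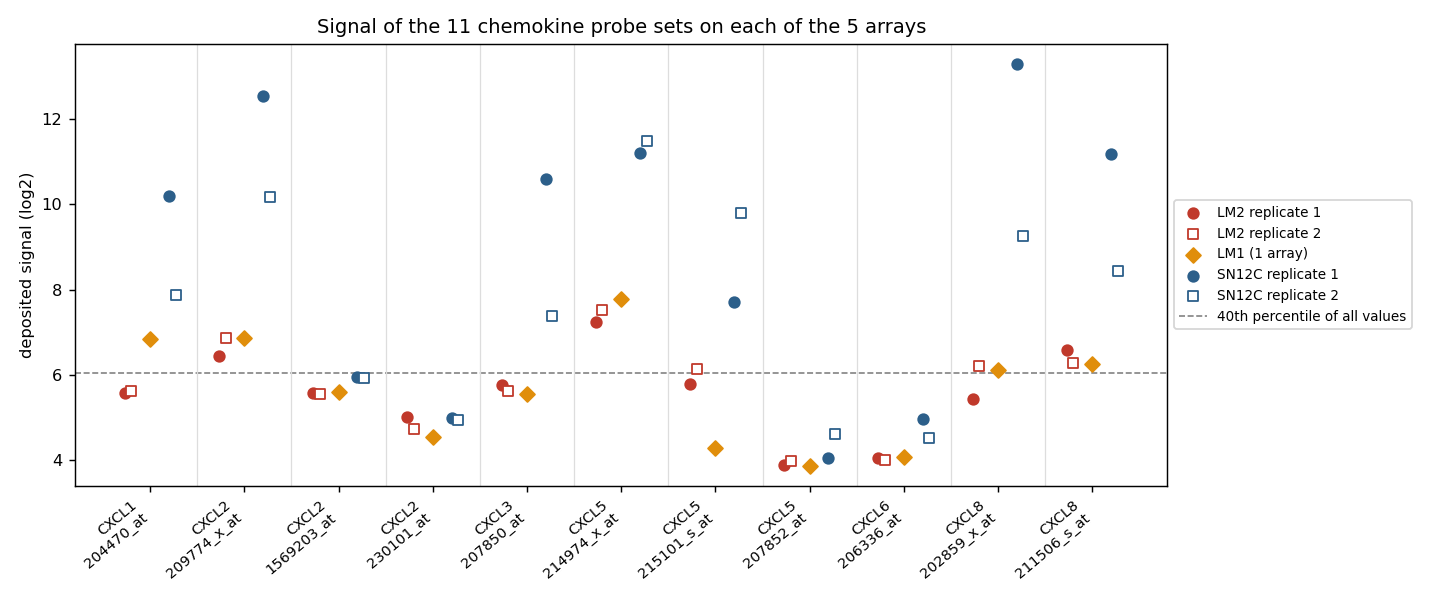
Deposited log2 signal of the 11 chemokine probe sets (horizontal axis) on each array, with LM2 left, LM1 in the middle and SN12C right within each probe set. Filled circles are replicate 1, open squares replicate 2 and diamonds the 1 LM1 array; the dashed line is the 40th percentile of all values, 6.03. SN12C arrays are above the metastatic arrays for 10 of 11 probe sets, and the SN12C replicates are at least 2 units apart in 6, which belong to CXCL1, CXCL2, CXCL3, CXCL8 (both probe sets) and CXCL5 (215101_s_at).

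Ranked over all 54613 probe sets by the difference between LM2 and SN12C, from the most negative, the 7 brighter chemokine probe sets stood at places 2 and 9 (CXCL8), 4 (CXCL2), 6 and 20 (CXCL5), 8 (CXCL1) and 12 (CXCL3). Places 2, 8, 12 and 20 rest on probe sets with at least 1 LM2 array under 6.03. The places and the counts below describe genes chosen with earlier results of these data known. The median over the 11 probe sets was -3.29 in LM2 and -3.44 in LM1, against 0.00 for all probe sets in each comparison. The comparisons share the SN12C arrays, so the likeness of these medians is not independent evidence. For LM1 against SN12C 0 of 11 passed at an adjusted p of 0.05, as did 0% of all probe sets, and 4 of the 11 were lower at an unadjusted p under 0.05, against 6.86%. LM1 was at least 1 log2 unit lower for 7 of the 11, against 4.03%, with its own spread assumed to be that of the replicated lines.

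**Figure D2:**
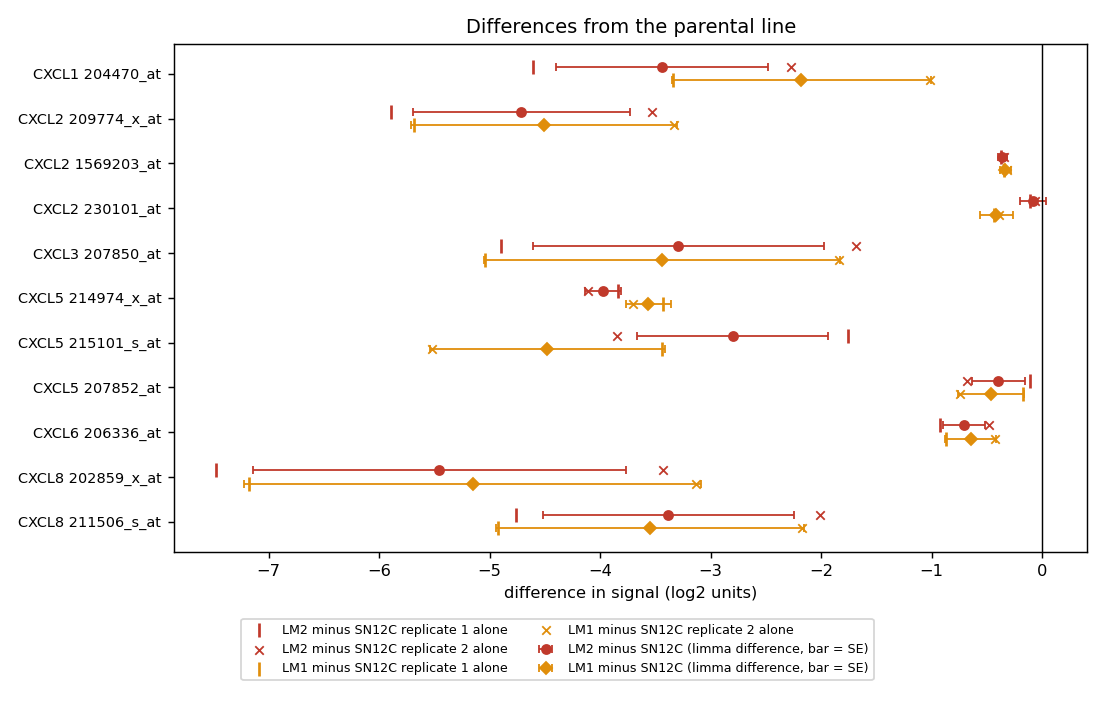
Differences in log2 signal from the parental line for each chemokine probe set, LM2 (circles) above LM1 (diamonds). Bars are the limma standard error, vertical ticks the difference from SN12C replicate 1 alone and crosses that from replicate 2 alone. All differences lie below 0, from -7.48 for CXCL8 to -0.07 for CXCL2 230101_at in LM2.

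How large the differences were depended on the parental array. By the brightest probe set of each gene, SN12C replicate 1 exceeded replicate 2 by 4.05 for CXCL8, 3.21 for CXCL3, 2.36 for CXCL2, 2.33 for CXCL1 and 0.45 for CXCL6, and stood 0.27 below it for CXCL5. A gap of at least 2 units between the SN12C arrays was found in 6 of the 11 probe sets, against 0.271% of all. Set against replicate 1 alone, LM2 differed by a median of -4.75 over the 6 genes, from -7.48 for CXCL8 to -0.93 for CXCL6. Set against replicate 2 alone the median was -2.85, from -4.11 for CXCL5 to -0.48 for CXCL6. CXCL8 thus led against replicate 1, and CXCL5 against replicate 2. In LM1 the medians were -4.23 and -2.48 against the same arrays. The ribosomal signal was high on SN12C replicate 1, where the chemokines were high, and nearly as high on the LM1 array, where they were low; the part of array quality in the result was not tested.

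**Figure D3:**
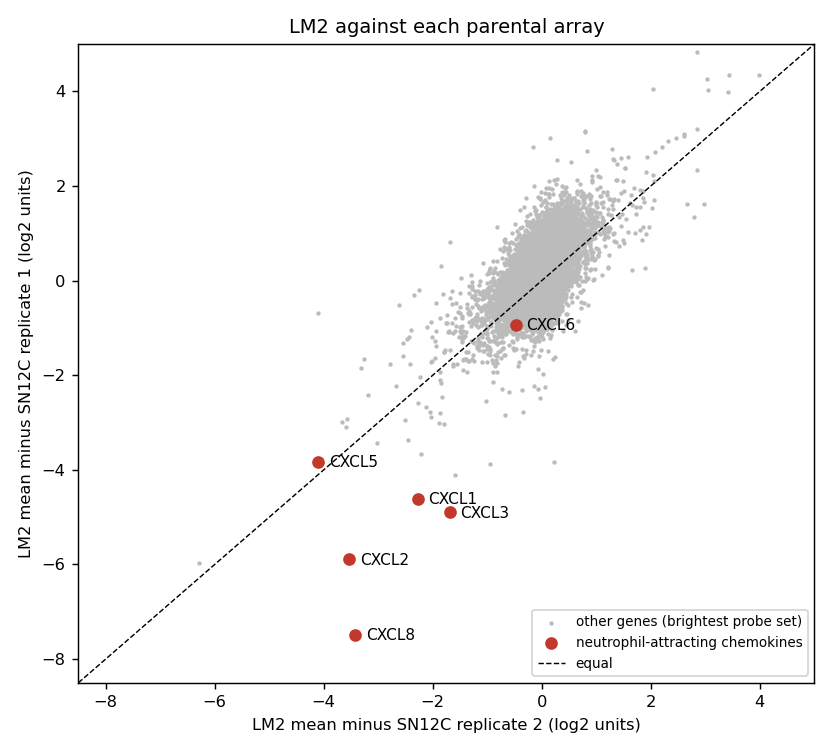
LM2 mean minus SN12C replicate 1 (vertical axis) against LM2 mean minus SN12C replicate 2 (horizontal axis), in log2 units, for the 6 chemokines (red) and all other genes (grey), each by its brightest probe set. Points on the dashed line differ equally from both parental arrays: CXCL5 lies near it, CXCL8, CXCL2, CXCL3 and CXCL1 well below it, and CXCL6 close to the cloud of other genes.

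Between the metastatic lines the chemokines were much closer than between either line and the parent. In LM2 against LM1 the 11 probe sets had a median difference of -0.03, against -0.03 for all probe sets, and 0 of 11 passed in limma at an adjusted p of 0.05, as did 0% of all. At an unadjusted p under 0.05, 0 of 11 differed, against 17.7% of all probe sets. This count cannot show closeness, because the limma error includes the gap between the SN12C replicates, with SE up to 2.07 for CXCL8 202859_x_at. The median absolute difference was 0.205 for the 11 probe sets, against 0.143 for all. The probe sets at least 1 log2 unit apart were CXCL1 204470_at and CXCL5 215101_s_at, 2 of 11 against 5.93%. Their signs were opposite, and the LM1 array has no replicate. CXCL3, CXCL6, CXCL2 1569203_at and 230101_at and CXCL5 207852_at were under 6.03 on every metastatic array. For these, closeness of LM2 and LM1 need not mean equal expression.

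The other chemokine genes inside the cluster had differences near 0. In gene order the cluster ran from CXCL8 through CXCL6, PF4V1, CXCL1, PF4, PPBP, CXCL5, CXCL3 and the pseudogene PPBPP2 to CXCL2. PF4, its copy PF4V1 and PPBP, chemokines of platelets, differed by 0.03, 0.01 and -0.14 in LM2, and only PF4 reached 6.03 on any array. Among the 10 nearest measured genes on each side, ADAMTS3, a procollagen protease, was the only one at least 1 log2 unit lower in LM2 (-1.22); its LM2 and LM1 arrays read 3.99 to 4.28, against 4.34 and 6.39 in SN12C. MTHFD2L, a folate enzyme next to CXCL2, differed by -0.85 (limma unadjusted p = 0.0103), and EREG and BTC, ligands of the EGF receptor, by -0.03 and -0.04. EREG and BTC stayed below 6.03 on all arrays, so their small differences need not mean unchanged expression. On each side, 4 of the 10 genes reached 6.03 on at least 2 arrays. Chromosome 4 as a whole leaned the same way: of its other 786 measured genes, 3.82% were at least 1 log2 unit lower in LM2, against 1.02% of all genes, with a median of -0.09.

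**Figure D4:**
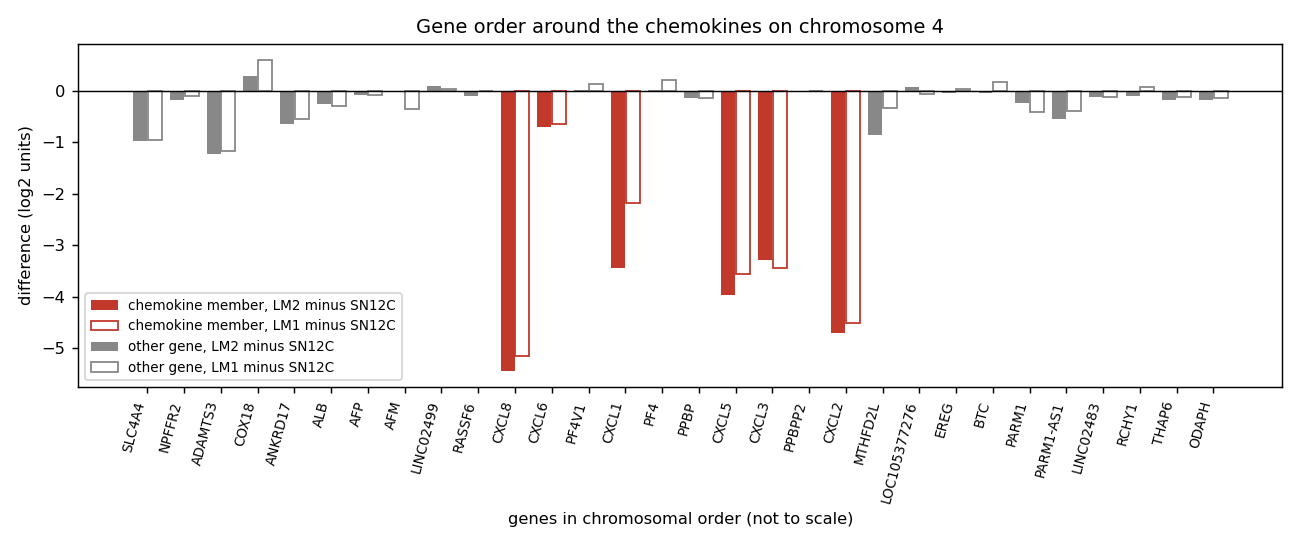
Difference from SN12C in log2 units for genes in their order on chromosome 4, not to scale, each by its brightest probe set. Filled bars are LM2 and open bars LM1; red bars are the 6 chemokines and grey bars the genes between and beside them, of which ADAMTS3 at -1.22 in LM2 is the lowest.

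Of the receptors, CXCR1 read 7.92 and 8.08 in LM2 and 8.08 in LM1, against 8.54 and 8.07 in SN12C. CXCR2 stayed below 6.03 on all arrays, and ACKR1, which scavenges these chemokines without signalling, differed by -0.08 in LM2. Of the 8 other CXC chemokines, which chiefly attract lymphocytes and other cells, 0 were at least 1 log2 unit lower in LM2, against 1.02% of all genes, and 0 of their 12 probe sets passed in either comparison. CXCL16, a membrane-bound chemokine, had the smallest p of these, with 7.17 and 7.16 in LM2 and 6.98 in LM1, against 7.70 and 7.71 in SN12C (difference -0.54 ± 0.04 in LM2, limma unadjusted p = 0.00103). Of the 8, CXCL11, CXCL13 and CXCL14 stayed below 6.03 on all arrays, and only 4 reached it on at least 2. A fall could not be seen in genes near background, and 0 of 8 is near the 1.02% of all genes.

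Cytokines that NF-kappaB also drives were lower in part. Of the 8 measured, 3 were at least 1 log2 unit lower in LM2, against 1.02% of all genes, and 4 in LM1, against 1.51%; the median was -0.82 in LM2 and -1.15 in LM1. IL6 read 7.87 and 8.67 in LM2 and 8.37 in LM1, against 11.64 and 10.73 in SN12C, and differed by -2.92 ± 0.50 in LM2 (limma unadjusted p = 0.0101). IL1A, which itself activates NF-kappaB, read 5.64 on both LM2 arrays and 5.78 in LM1, against 9.51 and 6.59 in SN12C, while its second probe set differed by 0.04. CCL20, a chemokine for dendritic and T cells, differed by -1.79 in LM2 and CCL2, a monocyte attractant, by -0.93 in LM2 and -1.99 in LM1. IL1B differed by -0.71 in LM2, and TNF, LIF and CSF3, the granulocyte growth factor, by -0.03, -0.12 and -0.13, and CSF2 was not named in the platform table.

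Among 12 NF-kappaB subunits, inhibitors and targets the median was -0.50 in LM2 and -0.33 in LM1, with 2 at least 1 log2 unit lower in LM2, against 1.02% of all genes, and 4 in LM1, against 1.51%. NFKBIZ, an inducible nuclear co-factor, read 7.27 and 7.34 in LM2 and 8.04 in LM1, against 11.41 and 8.90 in SN12C, and its 2 probe sets differed by -2.85 and -2.29 in LM2. TNFAIP3, the feedback inhibitor A20, differed by -1.48. Of the subunits, RELB differed by -0.86 ± 0.12 in LM2 (limma unadjusted p = 0.00601), REL by -0.81 ± 0.12 (unadjusted p = 0.00612), RELA by -0.17 and NFKB1 by 0.20. REL differed by -1.27 in LM1. Its 5 probe sets ran from -1.01 to -0.10 in LM2 and from -2.26 to -0.06 in LM1. NFKB2 differed by -0.49 in LM2 and -3.07 in LM1, where another of its probe sets gave 0.06. REL and NFKB2 are among the 4 counted in LM1, so that count depends on the probe set used. SOD2, a mitochondrial antioxidant enzyme, differed by -0.82 in LM2 and 1.28 in LM1. Of 8 regulators that stabilise or degrade cytokine mRNAs, 0 were at least 1 log2 unit lower or higher in LM2. ZFP36, tristetraprolin, which degrades such mRNAs, had the most negative value at -0.33, and ZFP36L2 the most positive at 0.30. Over these lists together 0 of 84 probe sets passed an adjusted p of 0.05 in limma for LM2 or for LM1.

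**Figure D5:**
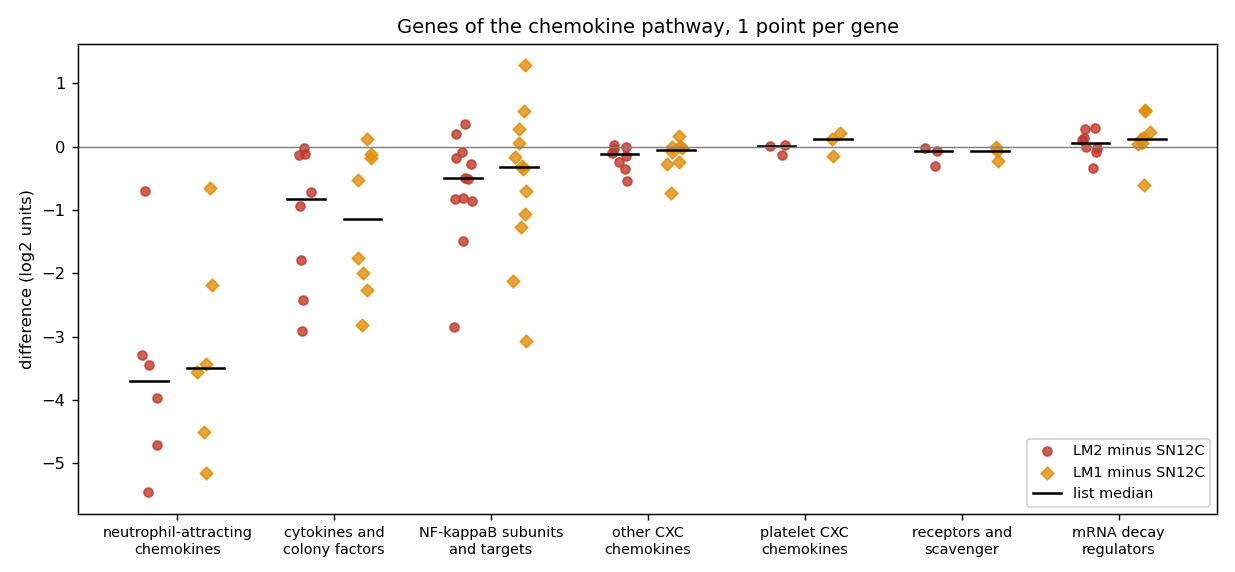
Difference from SN12C in log2 units for each gene of the chemokines and of 6 related lists, by brightest probe set, LM2 (circles) left of LM1 (diamonds), with the list median as a black line. Medians in LM2 are -3.71 for the 6 chemokines, -0.82 for the cytokines and -0.50 for the NF-kappaB list, and between -0.12 and 0.05 for the other 4 lists.

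Profiles were also compared over all genes. The mean of the 6 chemokines, by brightest probe set, was 5.75 and 5.97 in LM2 and 6.21 in LM1, against 10.46 and 8.44 in SN12C. Each of 19769 other genes was set against it by the root mean square distance between profiles centred on their means over the 5 arrays. The 10 nearest were, in order, TNC, NFKBIZ, IL6, HMOX1, IL1A, SLC16A7, ZNF542P, ERRFI1, TFPI and BEX2, at distances of 0.46 to 0.73 log2 units and Pearson correlations of 0.93 to 1.00. With 5 points on shared arrays these are descriptions. TNC, the matrix protein tenascin C, read 6.93 and 7.14 in LM2 and 7.82 in LM1, against 10.71 and 9.25 in SN12C. HMOX1, haem oxygenase 1, read 8.56 and 8.81 in LM2 and 8.95 in LM1, against 11.72 and 10.48 in SN12C. IL6, NFKBIZ and IL1A were also in the lists above. Those lists were chosen with earlier results of these data known, so this overlap is not independent evidence. Further probe sets of NFKBIZ, ZNF542P and SLC16A7 differed by -2.995 to -1.25 in LM2, and those of TFPI by -3.51 to -0.68. Those of TNC gave -0.14 and -0.17 and that of IL1A 0.04, near background. Neither TNC nor HMOX1 passed in limma for LM2 (adjusted p = 0.546 and 0.554).

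Markers were checked for the identity of the cells. KRT8 and KRT18, keratins of simple epithelium, vimentin and the renal factor PAX8 were above 6.03 on all arrays, from 9.19 for PAX8 in LM1 upwards, whereas EPCAM was below it on every array. Of the other markers in that list, CDH2 and MET read 10.2 or more on every array and CDH6 6.87 to 7.41. PAX2 and LHX1 read 6.34 to 6.46 and 6.06 to 6.08, close to 6.03. Of 10 neutrophil and myeloid markers 6 lay below it on all arrays, among them PTPRC and FCGR3B; CSF3R, ITGAM, CD14 and S100A9 reached it on at least 2. The summed log2 signal of the 10 was 58.2 and 58.0 in LM2 and 58.0 in LM1, against 57.9 and 58.3 in SN12C, while the summed signal of the 6 chemokines was 34.5 and 35.8 in LM2 and 37.2 in LM1, against 62.8 and 50.7 in SN12C. Endothelial markers summed to 37.0 and 37.3 in LM2 and 37.5 in LM1, against 39.3 and 38.2 in SN12C. Of the 6, KDR, a VEGF receptor, differed by -1.42 in LM2, TEK by -0.38 and PECAM1 by -0.22, while CDH5, CLDN5 and VWF differed by -0.01, 0.10 and 0.38. Fibroblast markers summed to 59.4 and 59.2 in LM2 and 57.5 in LM1, against 51.8 and 54.6 in SN12C, and the median difference of the 7 in LM2 was 0.24. By brightest probe set, as in the sums and the median, COL3A1, COL1A2 and THY1 differed by 3.04, 1.499 and 1.305 in LM2. PDGFRB differed by 0.24, and COL1A1, DCN and LUM by -0.01, -0.06 and -0.01. Probe sets of the same collagen gene differed widely. The 5 of COL1A1 ran from -0.07 to 2.55 in LM2 and from -0.12 to 2.66 in LM1. In LM2 those of COL3A1 ran from 0.03 to 3.04 and those of COL1A2 from -0.09 to 1.499. The part of these markers in the chemokine result was not tested.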

How the data were processed

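The deposited values are log2 signals, 1 for each probe set on each array. The authors used RMA and Partek, per the submitters' processing notes; their versions are not given in the sources used here. By its design RMA removes background, makes the distributions of the arrays equal and combines the probes of a set, so array medians lay between 6.51 and 6.57 and differences in total RNA are removed. Values were used as deposited. Of 54675 probe sets 62 controls were left out. The platform table named 1 gene for 41091, several for 1801 and none for 11721; probe sets with several were not used by name.

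No signal filter was set, so that every chemokine probe set was tested. The model was fitted with limma 3.58.1 in R 4.3.3, with 2 residual and 0.98 prior degrees of freedom. It was also run on simulated arrays whose spread was drawn from its own fit. Those arrays lacked the quality differences described above, so that run cannot vouch for the model on the real arrays. Lists, neighbours and profiles used the brightest probe set per gene. Gene order, promoters and names came from RefSeq tables of GRCh38.p14; promoter alignments used Biopython 1.88 and figures matplotlib 3.10.9. Named genes were all chemokine probe sets, up to 4 genes per list by size of difference plus any that passed, the 10 nearest profiles and the chromosomal neighbours; other list genes named, including RELA, REL, NFKB1, IL1B, TNF, LIF and CSF3, were chosen after their values were seen. CSF2, BIRC3, ZC3H12A and CA9 were not named by the platform table. The chemokines and lists were chosen with earlier results of these data known. Alternatives tried were signal filters, a single probe set per gene, further normalization, other eBayes options, fewer arrays and the replicate number as a block.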

Additional observations from a re-analysis of the deposited data

How the results depend on the processing

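With 40th and 60th percentile filters, 1 probe set per gene, median centring and trended robust eBayes, 0 chemokine probe sets passed in any comparison, as in the values reported, and also 0 for LM2 against SN12C with only their 4 arrays. Quantile normalization of the deposited values once more gave 1 for LM1 against SN12C, CXCL5 214974_x_at at -3.62 (limma adjusted p = 0.0408), where 967 of all probe sets passed, and 0 in the other comparisons. Leaving out each replicate gave 0 to 4 for LM2 against SN12C, 0 to 5 for LM1 against SN12C and 0 to 1 for LM2 against LM1, and for the 84 probe sets of the related lists 0 to 20 in LM2 and 0 to 23 in LM1. With either SN12C replicate left out, the spread is that of the LM2 pair alone. Without replicate 1, CXCL1 differed by -2.275 in LM2, CXCL3 by -1.69, CXCL6 by -0.48 and CXCL8 211506_s_at by -2.01. The highest counts against SN12C came without SN12C replicate 2, where replicate 1 alone stands for the parent. There 36.4% of the chemokine probe sets and 23.8% of the lists passed for LM2, against 17.6% of all, and 45.5% and 27.4% for LM1, against 24.3% of all. The 4 for LM2 were CXCL1 (-4.61), CXCL3 (-4.90), CXCL6 (-0.93) and CXCL8 211506_s_at (-4.76). The 1 for LM2 against LM1 was CXCL1 at -1.26, when either SN12C replicate was left out; 11.5% of all probe sets passed there, against 9.09% of the 11. The replicate block over the SN12C and LM2 arrays gave 0 (lowest adjusted p of a chemokine = 0.816). Deviations of same-numbered arrays correlated at 0.036 across probe sets. This single correlation cannot tell whether same-numbered arrays shared a culture or a batch. Under both rescalings all 11 differences kept their sign in each comparison; filters and eBayes options leave the estimates as they are. Leaving out 1 LM2 array turned CXCL2 230101_at against SN12C (0.05), and CXCL8 202859_x_at (0.09) and CXCL2 209774_x_at (0.003) against LM1. Signal near background limits CXCL6 and the dim probe sets of CXCL2 and CXCL5 on every array, and the sizes for CXCL1, CXCL3, CXCL8 202859_x_at and CXCL5 215101_s_at through the metastatic arrays.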

Other observations

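The NF-kappaB motif GGAATTTCC was also looked up in the promoters of other measured genes. Of 57 such genes 2 were at least 1 log2 unit lower in LM2 and 0 higher, 3.51% and 0%, against 1.08% and 1.38% of 15378 measured genes with a promoter in the table, and their median difference was -0.07. Genes of the lists among the 57 were CXCL10 (-0.35), CXCL11 (-0.04), ICAM1, an adhesion molecule (-0.09), and NFKB1 (0.20). The others were NFKBIA, the NF-kappaB inhibitor (-0.50), NFKBIZ (-2.85) and REL, an NF-kappaB subunit (-0.81). These values are for the brightest probe set. Over all its probe sets ICAM1 ran from -0.97 to -0.09, NFKBIA from -0.50 to 0.05 and REL from -1.01 to -0.10. With 2 genes past that size the share has a wide counting error, and a match of letters shows no binding.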
